A study of Mus musculus with 8 samples.

Results

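G protein-coupled receptor kinases (GRKs) and the β-arrestins were followed in the prefrontal cortex (PFC) of mice that overexpressed *Rnf146*. The group holds 7 genes, 5 kinases (*Grk2*, *Grk3*, *Grk4*, *Grk5* and *Grk6*) and 2 arrestins (*Arrb1* and *Arrb2*), and all 7 were among the 15039 genes of the expression table. The genes were taken by symbol, as a family chosen by earlier knowledge of the same contrast, in which *Grk5* stood out. The differences of these 7 genes between the groups are therefore given as a description, with no p-value. Calls of members by the fit over all genes are only counted beside the share of all genes called, and support nothing. *Grk5* was the member that stood apart, at 139% of the eGFP level on the scale of normalized counts, while the other 6 members lay between 90.2% and 100.4%.

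GRKs end the signal of an activated receptor. A GRK phosphorylates the occupied receptor, a β-arrestin binds the phosphorylated tail, and the arrestin uncouples the receptor from its G protein and brings it to clathrin-coated pits. Bound arrestin can also assemble kinase cascades of its own. The family has a GRK2 branch (*Grk2* and *Grk3*), which is brought to the membrane by free βγ subunits of G proteins, and a GRK4 branch (*Grk4*, *Grk5* and *Grk6*), whose members are held at the membrane by lipid contacts. In forebrain neurons both branches act on dopamine, adrenergic, muscarinic, serotonin and opioid receptors.

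RNA sequencing covered 8 PFC libraries, 4 for each of the 2 viruses. All mice were wild-type C57BL/6NCrljOri males aged 6 weeks at injection. The Rnf146 group received AAV2/1-hsyn-RNF146-eGFP on both sides of the PFC. The control virus of the eGFP group was AAV2/1-hsyn-eGFP, and the tissue was taken 4 weeks later. According to the paper, the overexpressing mice used for sequencing had been checked for Rnf146 and showed social deficits. The human synapsin promoter restricts the transgene largely to neurons, both vectors express eGFP, and the libraries are of whole tissue, so other cells and neurons without virus are included. Whether a library came from 1 mouse is not stated in the sources used here. The p-values measure only the spread of the differences between same-numbered libraries of the 2 groups.

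The deposited values are on a log2 scale and were centred within each same-numbered pair of libraries, so that for any gene the sum of both libraries is equal in all 4 pairs. Each gene thus carries its mean and 4 pair differences, written here as Rnf146 minus eGFP. A difference of the same sign in all 4 pairs is the same as groups that do not overlap. *Rnf146* (chromosome 10 of GRCm39, 29216737 to 29238438, minus strand) lay between 10.35 and 10.50 in the eGFP libraries and between 13.01 and 13.17 in the Rnf146 libraries, and differed by 2.64 ± 0.13 on average (SD, n = 4 pairs; adjusted p = 3.2e-07 from limma with the pair number as the replicate block). On the scale of normalized counts the difference of *Rnf146* was a fold of 8.20. Over all genes, limma called 188 genes, with adjusted p-values up to 0.1, which is 1.25% of the table. Defining genes of cortical tissue were well expressed, with *Slc17a7*, the vesicular glutamate transporter of cortical excitatory neurons, at a mean value of 14.78, although it was itself called lower (-0.30 ± 0.14, adjusted p = 0.092 from limma). Genes of striatum and septum were also measured, and they differed between the groups as given at the end. In whole tissue, fewer cells of a type and less RNA per cell cannot be told apart.

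Reads of one member could be assigned to another only where the transcripts share sequence, and these stretches are shown to give their extent. In the canonical transcripts of GENCODE vM39, the coding sequences of *Grk2* and *Grk3* were 74.7% identical over aligned bases, those of *Grk5* and *Grk6* 70.2%, those of *Grk4* and *Grk5* 67.4%, and those of *Arrb1* and *Arrb2* 73.2%. Between the branches, identity ran from 60.3% to 65.2%. The longest runs that *Grk4* shares with *Grk6* (23 bases, 66.0% identity of the coding sequences) and with *Grk5* (17 bases) are not printed. For *Grk2* and *Grk3*, *Grk5* and *Grk6*, and the 2 arrestins, the longest shared run is printed in capitals, 5′ to 3′ on the coding strand. On both sides, 12 bases of each gene are in lower case.
*Grk2*: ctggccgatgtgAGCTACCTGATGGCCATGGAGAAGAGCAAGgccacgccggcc
*Grk3*: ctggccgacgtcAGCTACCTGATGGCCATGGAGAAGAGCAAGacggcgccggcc
*Grk5*: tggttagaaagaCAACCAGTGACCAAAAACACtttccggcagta
*Grk6*: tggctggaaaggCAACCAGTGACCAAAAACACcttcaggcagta
*Arrb1*: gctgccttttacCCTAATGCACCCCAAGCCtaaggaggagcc
*Arrb2*: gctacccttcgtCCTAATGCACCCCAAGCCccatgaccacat

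The run of 30 bases shared by *Grk2* and *Grk3* lies in exon 1 of both genes, at chr19:4355980-4356009 and chr5:113163283-113163312 of GRCm39, each on the minus strand. The 20 bases shared by *Grk5* and *Grk6* lie in exon 7 of both, at chr19:61060873-61060892 and chr13:55599334-55599353, each on the plus strand. The 18 bases of the arrestins lie in exon 14 of *Arrb1* (chr7:99247725-99247742, plus strand) and exon 13 of *Arrb2* (chr11:70330515-70330532, plus strand). No word of 31 bases in a canonical member transcript occurred in a transcript of another member. *Grk5* was the member with the most sequence in common with other genes. Of its 9553 words, 486 (5.09%) occurred in transcripts of other genes, 162 of them in *Gm16284*, a processed pseudogene on chromosome 1. The share was at most 0.554% in the other 6 members. No value of the pseudogene was used here.

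The members spanned a wide range of expression. On the scale of normalized counts per kilobase of canonical transcript, read on the fitted curve, *Grk2* had the highest mean level in the eGFP libraries, 1503 ± 125 (SD, n = 4). *Arrb1* followed at 1184 ± 17.6, *Grk3* at 812 ± 35.2, *Grk6* at 774 ± 13.1 and *Arrb2* at 448 ± 13.3. *Grk5* was far lower, at 81.9 ± 3.16, and *Grk4*, the member best known from testis and kidney, was lowest at 50.9 ± 13.5. The ranges over the 8 libraries of *Grk3* and *Grk6* overlapped, and no other neighbours in this order did. Because the values were centred within pairs, these SDs and ranges hold the spread of the pair differences only and leave out variation that both libraries of a pair share. The order rests on the length used. The canonical transcript of *Grk5* is 9583 bases long with 1770 coding bases, and that of *Arrb1* is 7977 bases long with 1254. Per kilobase of coding sequence, *Arrb1* came first at 7532 ± 112, *Grk3* and *Grk2* had 2697 ± 117 and 2578 ± 215, and *Grk5* was still sixth, at 443 ± 17.1.

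**Figure D1:**
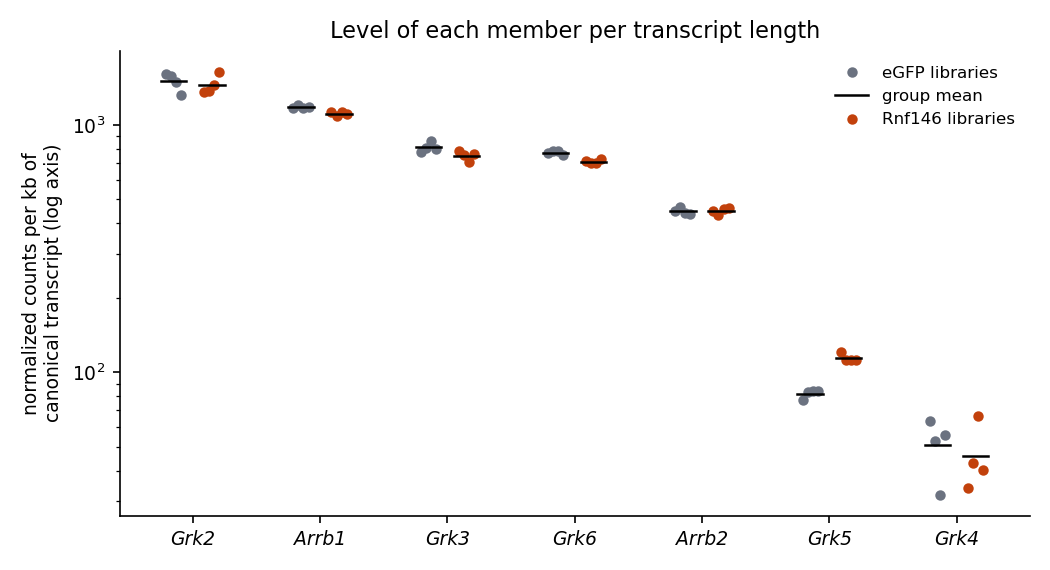
Level of each member in normalized counts per kilobase of canonical transcript (log axis), with 1 point per library, eGFP in grey and Rnf146 in orange, and black lines for the group means (n = 4). *Grk2* and *Arrb1* are the highest and *Grk4* the lowest, and the groups of *Grk5* lie apart, at means of 81.9 and 113.9.

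*Grk5*, a GRK4 branch kinase that calcium-bound calmodulin inhibits and that can also enter the nucleus, had its 4 Rnf146 libraries above its 4 eGFP libraries. It lies on chromosome 19 (60878187 to 61087409, plus strand). Its value was 10.12, 10.19, 10.20 and 10.20 in the eGFP libraries and 10.58, 10.51, 10.50 and 10.50 in the Rnf146 libraries of pairs 1 to 4. The groups did not overlap, which also held for the 10.4% of all genes that were higher in all 4 pairs. Because of the centring, the spread within a group holds only the spread of the pair differences. As *Grk5* was known to stand out in this contrast, the separation is a description. Pair by pair the difference was 0.47, 0.31, 0.30 and 0.30, and it averaged 0.35 ± 0.08 (SD, n = 4 pairs). Pair 1 was the high one, and without it the mean was 0.31. It ranked 129 of the 15039 genes, counted from the largest increase. At the level of *Grk5*, about 928 normalized counts, the deposited value moves by 0.729 when the log2 count moves by 1, and on the log2 count scale the difference was 0.48 ± 0.11, a fold of 1.39. *Zfp950*, which overlaps *Grk5* on the opposite strand, had a difference of 0.18 ± 0.12 (adjusted p = 0.221 from limma). The libraries were made with a stranded kit.

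*Grk6*, the kinase closest to *Grk5* in sequence and a regulator of dopamine receptors in striatal neurons, lay the other way. Its value was 11.03, 11.06, 11.06 and 11.02 in the eGFP libraries and 10.95, 10.93, 10.93 and 10.97 in the Rnf146 libraries of pairs 1 to 4. The groups did not overlap, although they were separated by a small step. The difference ran from -0.13 to -0.05, with a mean of -0.10 ± 0.04 (SD, n = 4 pairs). *Grk6* is a gene of chromosome 13 (55592885 to 55608888, plus strand).

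*Grk4*, on chromosome 5 (34817639 to 34914169, plus strand), gave no common direction. Its value was 8.91, 8.80, 8.57 and 8.83 in the eGFP libraries and 8.59, 8.70, 8.94 and 8.67 in the Rnf146 libraries. Pair 3 stood opposite to the other 3 pairs, with a difference of 0.37 against -0.32, -0.10 and -0.16. The mean of -0.05 ± 0.30 was far smaller than the spread between the pairs. *Grk4* was weakly expressed, at about 119 normalized counts, where the value moves by 0.355 per unit of log2 change, and on the log2 count scale its difference was -0.15 ± 0.85.

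*Grk2*, a kinase recruited by βγ subunits, had a difference that crossed 0. It lies on chromosome 19 (4336013 to 4356418, minus strand). The value was 12.57, 12.55, 12.48 and 12.32 in the eGFP libraries and 12.35, 12.37, 12.44 and 12.60 in the Rnf146 libraries. The difference was -0.22 in pair 1, -0.18 in pair 2, -0.04 in pair 3 and 0.29 in pair 4, so that pair 4 stood against the rest. The mean was -0.04 ± 0.23 (SD, n = 4 pairs), and without pair 4 it was -0.15.

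*Grk3*, the other kinase recruited by βγ subunits, on chromosome 5 (113058326 to 113163699, minus strand), was lower in 3 of the 4 pairs. Its value was 12.49, 12.54, 12.62 and 12.52 in the eGFP libraries and 12.50, 12.45, 12.36 and 12.46 in the Rnf146 libraries. The groups overlapped through pair 1 alone, whose difference was 0.01. Pair 3 had the largest step, -0.26, and the mean was -0.10 ± 0.12, no larger than the spread between the pairs.

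*Arrb1*, which encodes β-arrestin 1 and lies on chromosome 7 (99184470 to 99256620, plus strand), was lower in all 4 pairs. Its value was 13.25, 13.29, 13.25 and 13.27 in the eGFP libraries and 13.20, 13.15, 13.20 and 13.18 in the Rnf146 libraries. The groups did not overlap, but the largest difference was -0.14, in pair 2, and the mean was -0.08 ± 0.04 (SD, n = 4 pairs). *Arrb2*, which encodes β-arrestin 2, is on chromosome 11 (70323381 to 70333488, plus strand). The value was 10.27, 10.30, 10.24 and 10.24 in the eGFP libraries and 10.26, 10.22, 10.28 and 10.29 in the Rnf146 libraries. The groups overlapped fully, and the mean difference of 0.0040 ± 0.061 was near 0.

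**Figure D2:**
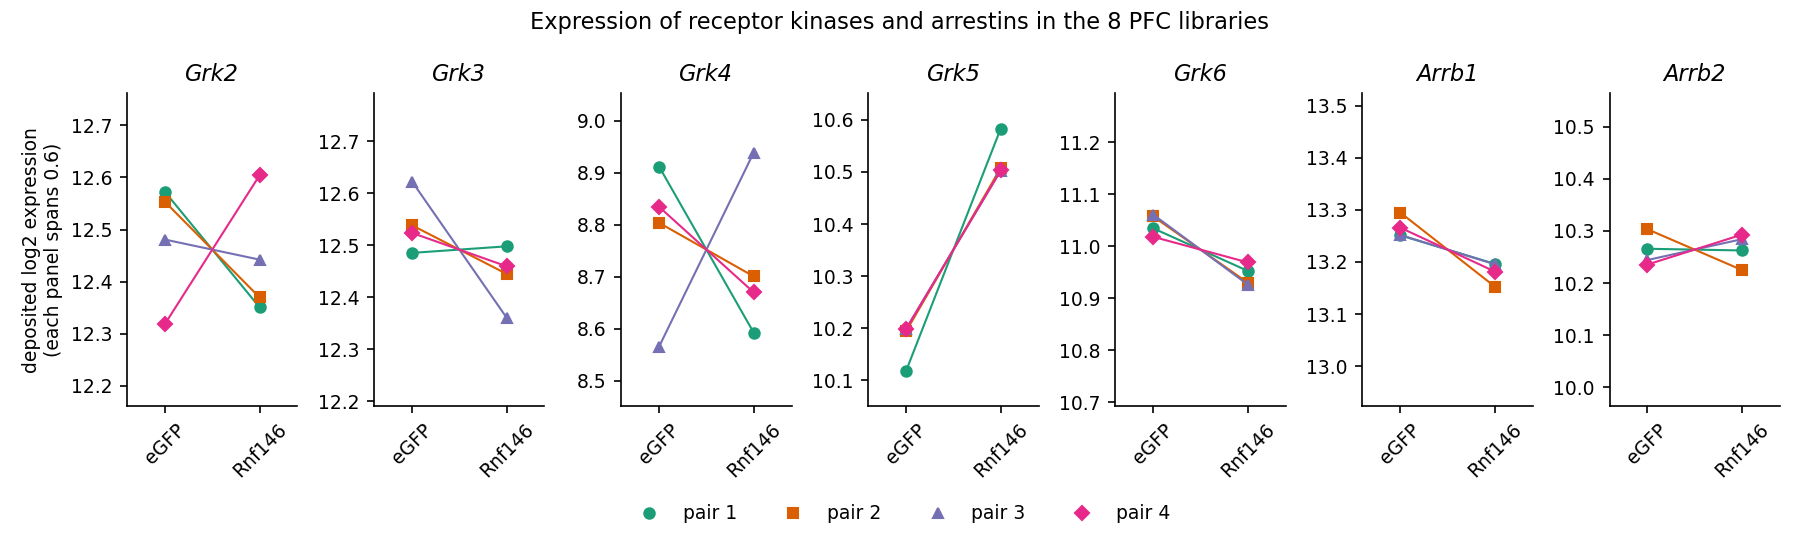
Deposited log2 expression of each member in the 8 libraries, with 1 panel per gene, every panel spanning 0.6 on the log2 scale, and lines joining the 2 libraries of a pair. All lines rise in *Grk5* (10.12 to 10.20 in eGFP against 10.50 to 10.58 in Rnf146), all fall in *Grk6* and *Arrb1*, and their direction differs between pairs in the other 4 genes.

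Across the family, 1 of the 7 members was called, *Grk5*, which was higher. Over all genes, 0.818% were called in that direction and 0.432% in the other. Among the 7 members, 1 was higher in all 4 pairs and 2 were lower in all 4, against 10.4% and 10.2% of all genes. The median difference of the 7 was -0.05, beside 0.0009 over all genes, and 5 of the 7 had a mean below 0. As the family was picked with this contrast known, nothing is read from these counts. With the 8 values taken as independent libraries, without the replicate block, *Grk6* and *Arrb1* were called as well, both lower, in a fit that called 21.5% of all genes (11% higher and 10.4% lower). The centring leaves only 4 independent differences per gene, so that fit overstates the evidence, and nothing is read from its added calls. *Grk5* was not called when pair 2 or pair 4 was left out, although its difference was 0.36 in both cases.

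**Figure D3:**
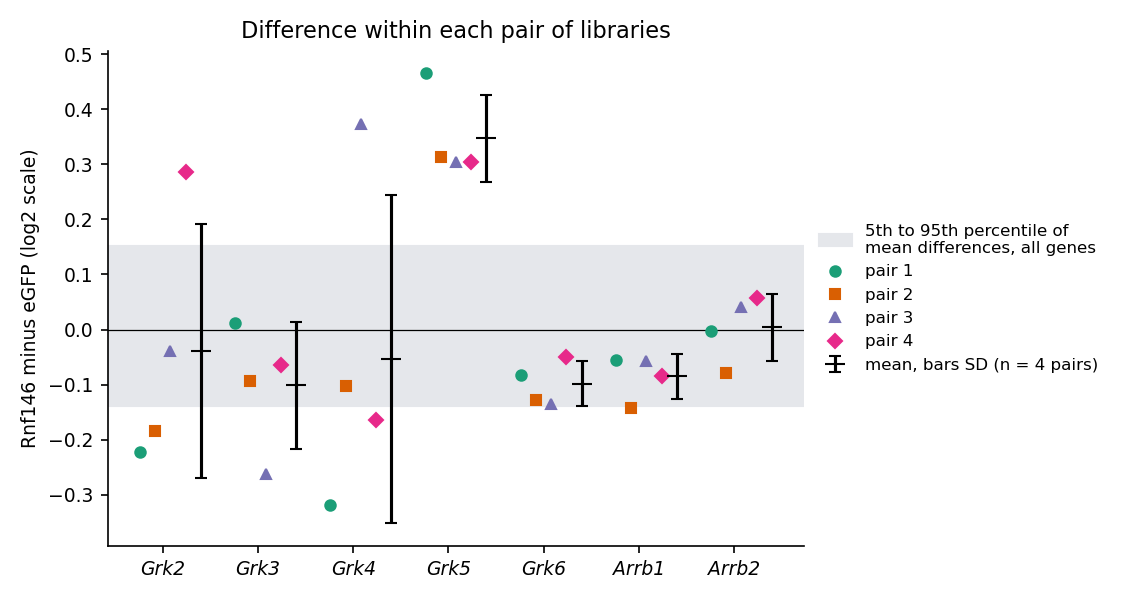
Difference of each member within each of the 4 pairs (log2 scale), with the mean and SD of the pairs in black and the 5th to 95th percentile of the mean differences of all 15039 genes shaded (-0.14 to 0.15). The 4 points of *Grk5* lie above the band, and the means of the other 6 members lie inside it.

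Likeness to *Grk5* was measured as the Euclidean distance between the 4 pair differences of genes, the same values that set *Grk5* apart, so the order is a description. A gene with no difference in any pair would lie at a distance of 0.707. The 5 genes nearest to *Grk5* were *Nhs*, which encodes a regulator of actin remodelling (distance 0.109), *Fam210b*, for a mitochondrial protein (0.128), *Agt*, for angiotensinogen (0.130), *Inpp5f*, for a phosphoinositide phosphatase of endosomes (0.145), and *Ap1s2*, for a subunit of the AP-1 clathrin adaptor (0.146). Their mean differences ran from 0.29 in *Inpp5f* to 0.41 in *Fam210b*. The likeness holds for the deposited values only. On the log2 count scale the differences ran from 0.34 in *Inpp5f* to 1.01 in *Agt*, beside 0.48 in *Grk5*. *Arrb2* was the nearest member, at a distance of 0.710, as number 6442 in order of distance, and the other 5 members were at 0.872 or more.

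Beyond the members, 160 genes that act before, beside or after GRKs and arrestins were examined in 11 lists, and 151 of them had values. Of these 151, 3 were called higher and 1 lower, or 2.65% beside the 1.25% of the table, and their median difference was -0.0056. The lists were chosen with earlier results of these data known, so nothing is read from this share. Without the replicate block, 50 of the 151 were called, in the fit that called 21.5% of all genes. That fit takes the centred values as independent, which they are not. The 4 called genes were a kinase and 3 receptors.

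*Prkcd*, which encodes protein kinase C δ, was the called gene among 11 genes for second messenger kinases and their regulatory subunits. These kinases phosphorylate receptors whether or not an agonist is bound. Pairs 1 to 4 gave differences of 0.85, 0.80, 0.49 and 0.85, or 0.75 ± 0.17 on average (SD, n = 4 pairs; adjusted p = 0.0051 from limma), and every pair was higher with Rnf146. On the log2 count scale the difference of *Prkcd* was 1.00 ± 0.23, a fold of 1.99. The other 10 genes, for catalytic and regulatory subunits of protein kinase A and for protein kinase C, were not called.

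Among 37 receptors that GRKs and arrestins act on, 2 were called higher and 1 lower, or 8.11% beside 1.25% of all genes. The median difference was 0.0042. *Htr1a*, which the paper lists among its upregulated genes, had a difference of 0.28 ± 0.19 and was not called here. *Htr7*, a serotonin receptor that couples to Gs, had a mean difference of 0.29 ± 0.07 (adjusted p = 0.042 from limma), and *Ednrb*, the endothelin B receptor, had 0.29 ± 0.12 (adjusted p = 0.082). *Chrm1*, the muscarinic receptor of cortical pyramidal neurons, had -0.25 ± 0.03 (adjusted p = 0.054) and was lower by a similar step in all 4 pairs. The deposited values compress changes at low counts. On the log2 count scale the differences were 0.72 in *Htr7*, 0.38 in *Ednrb* and -0.27 in *Chrm1*, or folds of 1.64, 1.30 and 0.83. *Ednrb* was not called when any 1 of the 4 pairs was left out (adjusted p from 0.101 to 0.327 by limma), *Chrm1* was not called without pair 2, 3 or 4 (0.126 to 0.288), and *Htr7* was not called without pair 2 or 4 (0.163 and 0.245). The dopamine receptors *Drd1* and *Drd2* and the adenosine receptor *Adora2a*, which are striatal markers as well and were singled out after their values were seen, had large but uneven differences of 0.39 ± 0.50, 0.74 ± 0.54 and 0.70 ± 0.74, and none was called.

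In the lists of G proteins and of their regulators no gene was called. The 17 genes for RGS proteins, which speed up the GTP hydrolysis of Gα, and for the RGS binding protein Rgs7bp had a median difference of 0.03. *Rgs9*, the striatal member, ran from -0.29 in pair 1 to 1.33 in pair 2 (mean 0.54 ± 0.68, adjusted p = 0.335 from limma), while *Rgs10* was evenly higher, at 0.15 ± 0.06 (adjusted p = 0.257). The median was 0.01 over 11 Gα subunits and 0.03 over 13 βγ subunits. *Gnal*, the Gα subunit that couples dopamine receptors in striatum, had 0.39 ± 0.26 (adjusted p = 0.122), and its partner *Gng7* had 0.42 ± 0.43 (adjusted p = 0.261). *Gna12* and *Gng4* had 0.14 ± 0.18 and 0.26 ± 0.28, neither larger than its spread.

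The machinery that carries arrestin-bound receptors inward also held no called gene among 23. *Dnm3* and *Dnm1*, for dynamins that pinch off the vesicle, had differences of opposite sign, 0.21 ± 0.10 (adjusted p = 0.145 from limma) and -0.15 ± 0.08 (adjusted p = 0.279), each with 1 sign in all 4 pairs. Of 18 proteins that bind or restrain GRKs and arrestins, *Arhgef7*, the partner of the GRK-interacting proteins Git1 and Git2, had 0.24 ± 0.43, with 0.87 in pair 2 and a mean of 0.03 without that pair. *Cav1*, a caveolin that binds GRKs, had 0.18 ± 0.11 (adjusted p = 0.241). The 5 α-arrestins, distant relatives that act as ubiquitin ligase adaptors, had a median of -0.02, with *Arrdc2* at -0.07 ± 0.26 and *Arrdc1* at -0.06 ± 0.18. Of the visual kinase and arrestins, *Sag* had a value, with a difference of -0.14 ± 0.09 (adjusted p = 0.261). At about 59 normalized counts, this was -0.56 ± 0.33 on the log2 count scale.

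Another list held genes for proteins that link the family to Wnt and Hedgehog signaling. Examples are the coreceptor Lrp6, a substrate of Grk5 and Grk6, and the Dishevelled proteins, which bind β-arrestins. None of the 7 genes was called, 6 had a mean below 0, and the median was -0.04. The largest steps were -0.13 ± 0.13 in *Dvl1* (adjusted p = 0.376 from limma) and -0.05 ± 0.05 in *Dvl2*, both lower in all 4 pairs. Among 8 cytosolic and nuclear substrates of GRKs none was called. *Sncb*, for β-synuclein, which GRKs phosphorylate, lay below 0 in all 4 pairs but was not called, at -0.15 ± 0.06 (adjusted p = 0.240 from limma).

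**Figure D4:**
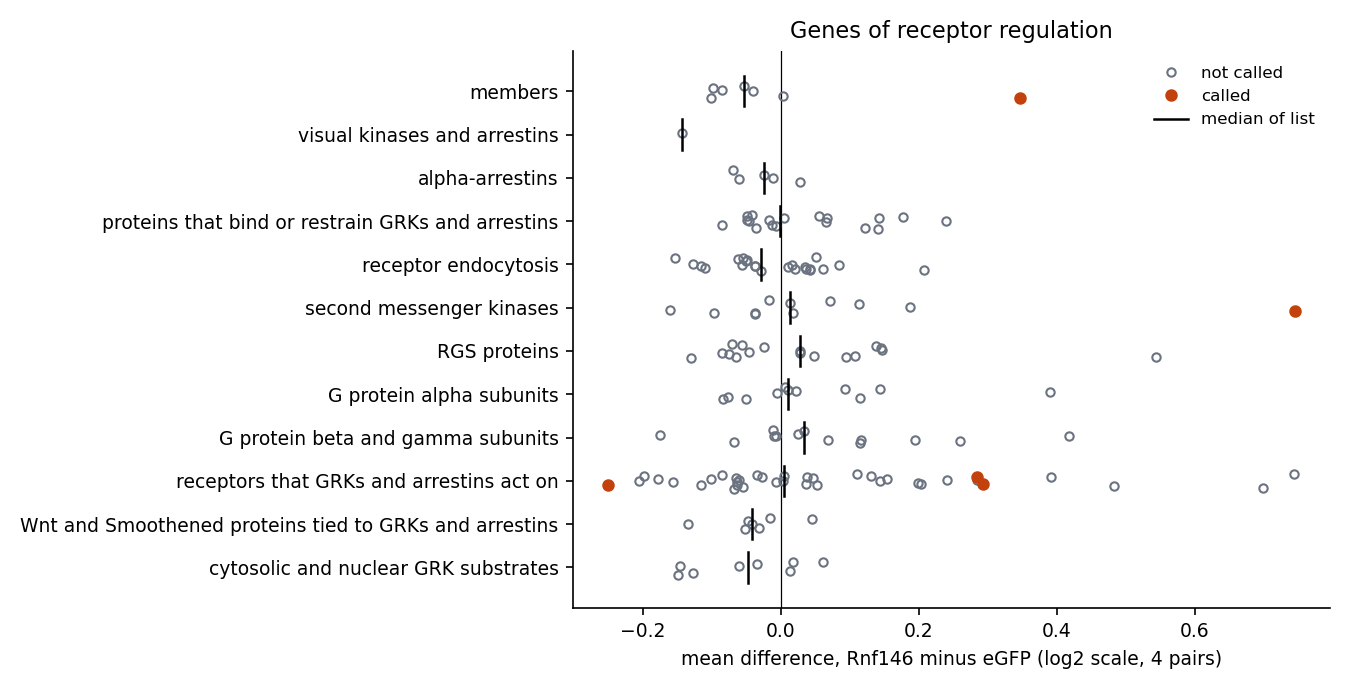
Mean difference of each measured gene of the 7 members and of the 11 lists of receptor regulation (log2 scale, 4 pairs), with filled orange points for called genes and a black line for the median of each list. Most genes lie near 0, and the called ones are *Grk5*, *Prkcd*, *Htr7*, *Ednrb* and, on the lower side, *Chrm1*.

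Markers of other tissue moved between the groups. The marker lists were chosen with earlier results of these data known, so their counts of called genes are a description only. Over all genes, 0.818% were called higher and 0.432% lower. Septal and basal forebrain genes, 7 of 10 of which were measured, averaged 0.48, 0.76, 0.33 and 0.62 in the 4 pairs, and 7 of these 7 were called higher. The mean level of the list lay between 9.28 and 9.49 in the eGFP libraries and between 9.82 and 10.04 in the Rnf146 libraries, and its genes *Chat*, *Lhx8* and *Gbx1* had no value in the table. The 12 striatal genes averaged -0.09, 1.23, 0.66 and 0.26, with 9.77 to 10.43 in the eGFP libraries and 10.34 to 11.00 in the Rnf146 libraries, and 0 of the 12 were called by limma.

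The list of cortical excitatory neurons averaged -0.20, -0.34, -0.04 and -0.18 (11.25 to 11.40 in the eGFP and 11.06 to 11.21 in the Rnf146 libraries), with 1 of 8 genes called lower, and the microglial list averaged -0.21, -0.30, -0.09 and -0.13, with 1 of 7 called lower. The inhibitory neuron genes split. *Gad1*, *Gad2* and *Slc32a1*, which all GABA neurons use, were called higher, while the means of the other 4 of the 7 (*Pvalb*, *Sst*, *Vip* and *Lhx6*) lay below 0 and were not called. The mean of this list was 0.17 ± 0.05 and its median -0.03. The ependymal list averaged 0.14 ± 0.05, with 1 of 4 called higher. The oligodendrocyte list averaged 0.44 ± 0.43, and the astrocyte and endothelial lists -0.01 ± 0.04 and -0.01 ± 0.08, with no gene called in these 3 lists. When a score of striatal and septal genes joined the block as a covariate, the difference of *Grk5* was 0.42 and it was not called, as were all but 3 genes of the table. All measured septal genes of this score were themselves called higher, so the score and the group cannot be told apart in this fit. The part of tissue makeup in the differences of the members was not tested.

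**Figure D5:**
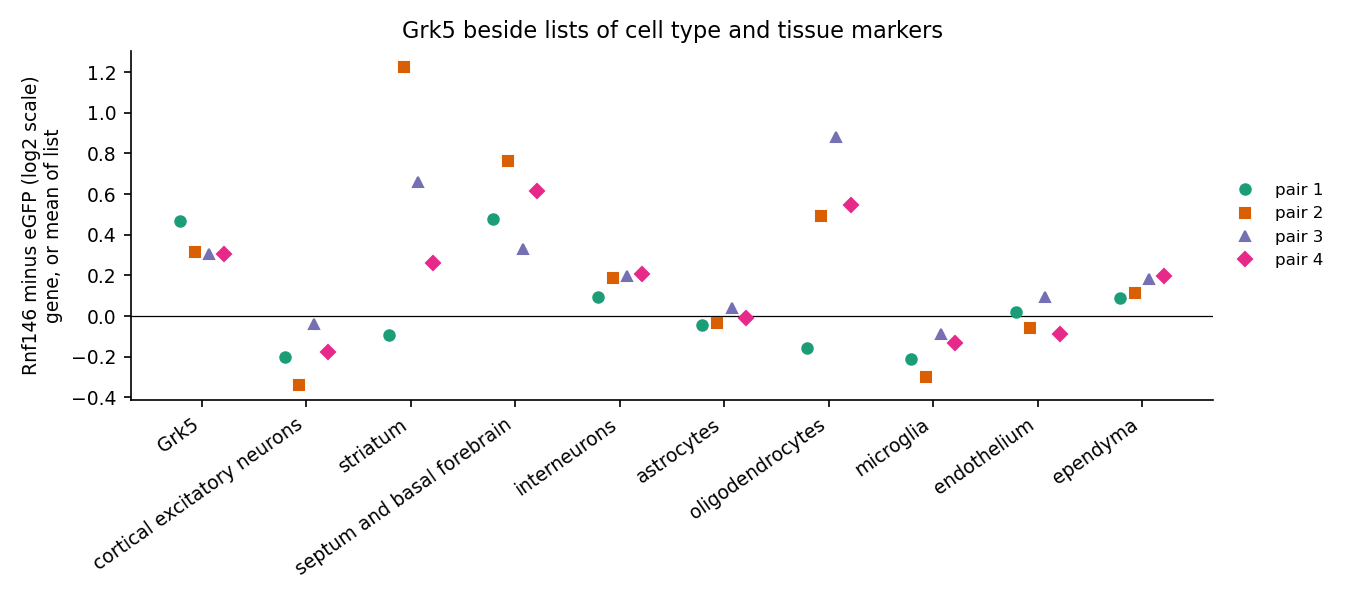
Difference of *Grk5* and mean difference of 9 lists of cell type and tissue markers in each of the 4 pairs (log2 scale). *Grk5* lies between 0.30 and 0.47 in all pairs, the septal list is above 0 in all pairs, and the striatal and oligodendrocyte lists run from below 0 in pair 1 to 1.23 and 0.88 in other pairs.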

How the data were processed

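RNA was measured in 8 PFC libraries (4 per group, paired by replicate number). The authors trimmed reads with Cutadapt, quantified transcripts with Salmon 1.9.0 against GENCODE vM30 (GRCm39) and, per the submitters' processing notes, used DESeq2. The deposited values are log2 expression, from 7.86 to 18.8, which lay on a curve of variance-stabilized values when set against mean counts of 294 genes in the study's supplement (median absolute residual 0.0086, largest 0.538). The curve was inverted to give normalized counts. The transformation and the centring within pairs (pair sums equal within 1.4e-13) are not given in the sources used here. The centring fixes the correlation of same-numbered libraries at -1 and is where the pairing comes from. No counts were at hand, so depth is unknown.

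Differences were fitted over 15039 genes with limma 3.58.1 in R 4.3.3 (trend, replicate block) with Benjamini-Hochberg adjustment, and the threshold for a call was 0.1. The fit was tested on simulated data. The members and lists were chosen with earlier results of these data known. Named genes are the members, called genes of each list (or its 2 largest differences) and the 5 genes nearest *Grk5*, of which 1 listed gene is not reported here. Gene models and sequences are from GENCODE vM39 (GRCm39), handled in Python 3.11.15 with Biopython 1.88. Alternatives were other scalings, filters, pseudocounts, variance models and thresholds, no block, a covariate and each pair left out.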

Additional observations from a re-analysis of the deposited data

Results flagged for a closer look

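In *Grk5*, the difference of pair 1 (0.47) stood apart from those of the other 3 pairs (0.30 to 0.31). Its gap to the nearest pair was 0.938 of the whole range, above Dixon's critical value for 4 values, which chance passes in about 1 in 20 groups. Such a gap was found in 5.39% of all genes and in 1 of the 7 members.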

How the results depend on the processing

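Without the replicate block, 3226 genes, 3 members and 50 genes of the receptor regulation lists were called, in place of 188, 1 and 4 with it. The fit without the block takes the centred values as independent, which they are not, and so calls too many genes. With the striatal and septal covariate 3, 0 and 0 were called, and at an adjusted p of 0.05, 80 genes and 2 listed genes. Leaving out 1 pair at a time, the calls ran from 14 to 421 over all genes, from 0 to 1 among the members and from 1 to 11 in the lists. Pair 4 and pair 2 were the decisive ones, with 14 and 42 genes called without them, against 421 without pair 1. *Prkcd* was called with any 1 pair left out. Median centring, quantile normalization, a minimum mean of 50 normalized counts and other variance models each left 1 member and 4 listed genes called.

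The median difference of the members was -0.0882 and -0.0881 on the log2 count scale with pseudocounts of 0.5 and 5, and ran from -0.0845 to 0.0064 with pairs left out. The difference of *Grk5* lay between 0.31 and 0.48 in all 11 alternatives that give one, and *Grk3*, *Grk6* and *Arrb1* were below 0 in all 11. Among these 11, leaving out the block and the minimum mean count cannot change the difference of a member. *Grk2* changed sign in 3, *Arrb2* in 2 and *Grk4* in 1. The levels per coding kilobase were added after the data were seen. Low expression limits *Grk4*, and the depth of the libraries is unknown.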
